A study of Mus musculus with 3 samples.

Results

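Pou5f1, Otx2, Mycn, Klf4 and Klf5 encode transcription factors that hold mouse stem cells in, or lead them out of, the pluripotent state. Peaks of AGO2-bound RNA in the spans of these 5 genes were taken from 3 HITS-CLIP libraries of P19, an established mouse embryonal carcinoma line with stem cell properties. In HITS-CLIP, RNA is crosslinked to its protein, pulled down with an antibody, here the AGO2 clone 2D4 from Wako Chemicals, and sequenced. The libraries, CLIP_AGO2_1 to CLIP_AGO2_3, formed 1 group with no treatment and no control. The authors deposited 4 peak lists, named after the callers CIMS, Piranha, Pyicoclip and PIPE-CLIP, with no value per library. The spread between libraries and their depth are therefore unknown, the lists are 4 readings of the same RNA and not replicates, and no difference was tested.

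A peak was counted if its midpoint lay in the mm10 RefSeq span of 1 of the genes, on either strand. By this rule 13 of the 6911 peaks in the 4 lists were members, 7 from PIPE-CLIP, 4 from Pyicoclip, 2 from Piranha and 0 from CIMS. The 0 of 169 CIMS peaks allow a share of up to 1.78%, a limit that covers counting error only. The genes were chosen by these same peak calls and scores, so the counts below are a description. Positions are in mm10, counted from 1.

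AGO2 is the Argonaute protein that carries a microRNA to partly complementary RNA, most often in the 3′ end of an mRNA, where bases 2 to 8 of the microRNA, the seed, make the main contact. Pluripotent mouse cells are known for the miR-290 and miR-302 clusters, which share a seed, and pluripotency factor mRNAs are known targets of microRNAs that rise when such cells differentiate. POU5F1, also called OCT4, is the POU-domain factor at the centre of the network. OTX2 is a homeodomain factor of the primed state and of the anterior neural tissue that follows it, MYCN is a MYC-family factor of growth and proliferation, and KLF4 and KLF5 are zinc finger factors of the naive state.

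Mature microRNA arms that lay under AGO2 peaks in the same lists are shown first, because a target site in an mRNA is read against such a seed. Of 10 microRNAs chosen as regulators in pluripotent or differentiating cells, 7 were found in the RefSeq table of GRCm38.p6, and their seeds were shared by 38 mature arms. Of these arms, 11 lay under a peak on their own strand or with no strand, 28.9%, beside 52 of all 1738 mature arms in the table, 2.99%. By seed, 5 of the 11 shared that of miR-181a-5p, and the seeds of miR-200b-3p, miR-9-5p and miR-134-5p had 0. The microRNAs were chosen by their role and not at random, and the choice may have drawn on earlier results of these data. Arms with an identical sequence at 2 genes, such as miR-181a-5p and miR-181b-5p, were counted at each gene. The 2 shares are therefore a description and their difference was not tested. The following are examples from 4 seed groups, with the seed in capitals.
miR-302b-3p: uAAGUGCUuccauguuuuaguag
miR-302d-3p: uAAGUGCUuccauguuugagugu
miR-93-5p: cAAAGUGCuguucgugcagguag
miR-181a-5p: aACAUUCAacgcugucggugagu
let-7c-5p: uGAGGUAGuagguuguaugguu

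The arm of miR-302b-3p scored 13 in Piranha and 13 in Pyicoclip, and that of miR-302d-3p scored 12 in both lists. These scores are the callers' own values and can be ranked only within a list. miR-93-5p, which shares its seed with miR-17-5p, scored 13 in Piranha, 13 in Pyicoclip and 12 in PIPE-CLIP. At the Mir181a-1 gene, miR-181a-5p scored 30, 30 and 12 in the same 3 lists, and the same arm at Mir181a-2 scored 12 in Pyicoclip alone. The arm of let-7c-5p at Mirlet7c-1 scored 12 in Piranha and 12 in Pyicoclip, and the same arm at Mirlet7c-2 scored 10 and 11. The mature arms of miR-181a-5p and let-7c-5p have an identical sequence at both of their genes. How reads that match both genes were placed is not given in the sources used here, so these scores cannot be assigned to 1 gene. Of the 7 microRNAs found by name, miR-181a-5p was the only 1 under a peak, and miR-294-3p, miR-17-5p, let-7a-5p, miR-200b-3p, miR-9-5p and miR-134-5p were under none. No sequence of the 13 member peaks was used here, so seed matches in them were not examined. None of the 13 overlapped a window of the RefSeq promoter table, which covers only part of the protein-coding genes and has no window for Klf5.

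The 5 genes differed in the kind of site they held. Otx2 and Mycn had several wide PIPE-CLIP clusters, of which 1 in each gene, late in the span, was also a wide Pyicoclip peak. Pou5f1 had 1 wide PIPE-CLIP cluster near its start, and Klf4 and Klf5 each had 1 narrow site from Piranha and Pyicoclip.

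**Figure D1:**
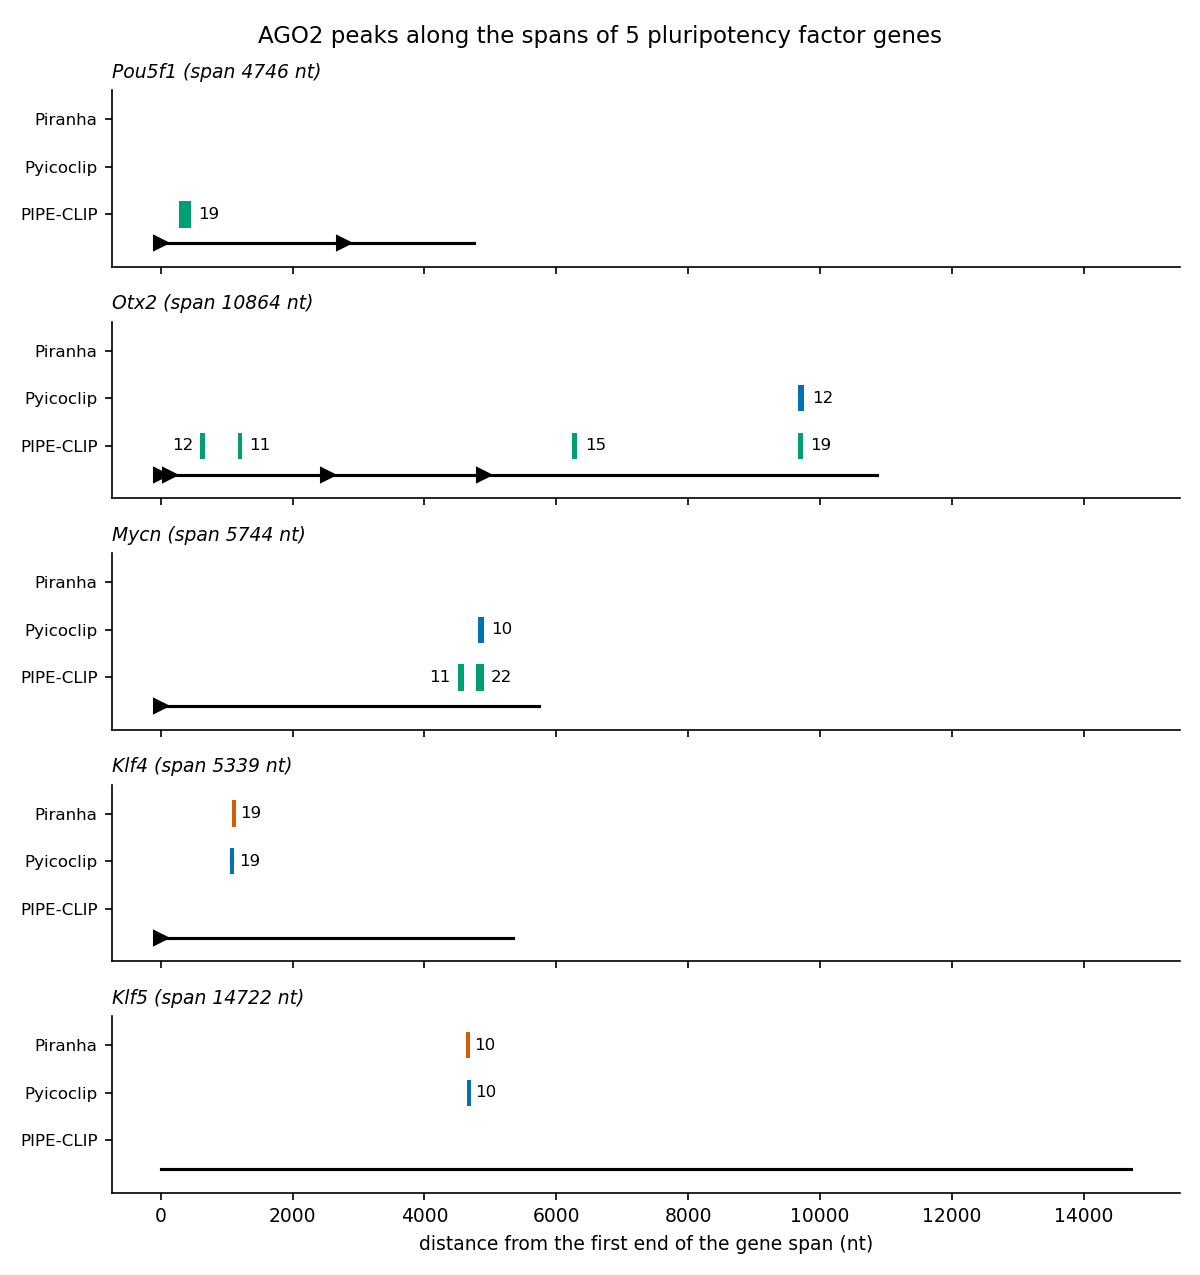
Peaks along each gene span, with the distance from the first end of the span in nt on the horizontal axis and the 3 lists that held peaks on the vertical axis. Bars are peaks (those under 60 nt are drawn 60 nt wide), numbers beside them are their scores, arrowheads are annotated transcription starts and the black line is the span; Klf5 is read in the direction of its peaks. Otx2 carries 4 PIPE-CLIP clusters spread from 600 to 9741 nt, and the other genes carry 1 or 2 sites each.

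Pou5f1 spans chromosome 17, 35506032 to 35510777, on the plus strand. It had a single peak, a PIPE-CLIP cluster of 182 nt at 35506305 to 35506486 with a score of 19. Piranha, Pyicoclip and CIMS held no peak there. The cluster began 273 nt after the first annotated start and ended 454 nt after it. The RefSeq table gives a second start 2775 nt downstream, and relative to it the midpoint of the cluster lay at -2411.5 nt, so the cluster was downstream of the first start and upstream of the second. The midpoint stood at 7.66% of the span. Mouse Pou5f1 has pseudogene copies, and how reads that match several copies were placed is not given in the sources used here.

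Otx2 spans chromosome 14, 48656781 to 48667644, on the minus strand, and had 5 peaks at 4 loci, where a locus is a run of overlapping peaks. Its PIPE-CLIP clusters scored 12, 11, 15 and 19 in the order of transcription. The highest-scoring cluster, at 48657903 to 48657982, lay wholly inside the only Otx2 peak of Pyicoclip, at 48657881 to 48657985, with a score of 12. This shared site had its midpoint 9701.5 nt from the first start and 1161.5 nt from the end of the span, at 89.3%. The next cluster, at 48661323 to 48661412 with a score of 15, stood at 57.8% of the span.

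The other 2 Otx2 clusters lay close to the start of the gene. They were at 48666978 to 48667044 (score 12) and 48666420 to 48666476 (score 11), with 501 nt between them. Of the 4 starts in the RefSeq table, the first pair lies within 136 nt, and the midpoints of both clusters follow these, at 633 and 1196 nt from the first. The remaining starts lie 2535 and 4910 nt downstream of the first, beyond both clusters. The shared site and the cluster scoring 15 are downstream of all 4 starts. Among the 1553 protein-coding genes with a PIPE-CLIP cluster, 11.5% had at least 4, and the median was 1.

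Mycn spans chromosome 12, 12936093 to 12941836, on the minus strand, and had 3 peaks at 2 loci. The stronger one was a PIPE-CLIP cluster of 123 nt at 12936940 to 12937062 with a score of 22, the highest of the 7 PIPE-CLIP clusters in the member genes. A Pyicoclip peak of 80 nt with a score of 10 began at the same base, 12936940, and lay inside the cluster. That peak has no strand in its list. The second cluster, at 12937242 to 12937335 with a score of 11, lay 179 nt upstream in the direction of transcription and was in no other list. The 3 midpoints stood at 84.6%, 84.2% and 79.2% of the span, so both sites lie near the end of the gene.

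Klf4 spans chromosome 4, 55527137 to 55532475, on the minus strand. It had a Piranha peak of 20 nt at 55531381 to 55531400 and a Pyicoclip peak of 28 nt at 55531391 to 55531418, both on the gene strand and both with a score of 19. They shared 10 nt and formed 1 locus, with midpoints at 20.3% and 20.1% of the span. PIPE-CLIP, the list with the most peaks on minus-strand genes, had no cluster in Klf4. Counted by peak and not by gene, 28.6% (95% Wilson interval 21.7 to 36.5) of 140 Piranha peaks of at most 30 nt on the strand of a minus-strand gene overlapped a PIPE-CLIP cluster, and the Klf4 peak was among the others.

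Klf5 spans chromosome 14, 99298691 to 99313412. Its Piranha peak of 20 nt at 99303321 to 99303340 and its Pyicoclip peak of 24 nt at 99303332 to 99303355 were both on the plus strand and shared 9 nt. Both scored 10, the lowest score that any list holds. Read in the direction of the peaks, they stood at 31.5% and 31.6% of the span. The strand of Klf5 was not used here, and on the opposite strand the same positions would be 68.5% and 68.4%.

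Across the 5 genes, 10 of the 13 peaks were on the strand of their gene, 0 were opposite to it, 1 had no strand and 2 were in Klf5. Each of the 13 midpoints lay in no other annotated gene span. The nearest peak outside the span lay at 31003 nt for Klf4, 38649 nt for Klf5, 307941 nt for Mycn, 312040 nt for Pou5f1 and 1111076 nt for Otx2. Of the 9 loci, 4 were in 2 lists and 5 were PIPE-CLIP clusters alone. The shared loci were 1 each in Otx2, Mycn, Klf4 and Klf5, and Pou5f1 had none. Such overlap was common between Piranha and Pyicoclip, with 1369 overlapping pairs beside 1417 Piranha peaks, where a peak can be in several pairs. Between PIPE-CLIP and Pyicoclip there were 688 pairs beside 3257 PIPE-CLIP clusters. The share of all loci that were in 2 lists was not counted.

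In the whole series, a peak of 1 list or more was found in 9.74% of 21900 protein-coding genes, and peaks of 2 or more lists in 3.95%. By list, 7.09% of them had a peak in PIPE-CLIP, 4.54% in Pyicoclip, 2.86% in Piranha and 0.251% in CIMS. The rule chose genes with peaks, so the presence of peaks in all 5 genes, and in 2 lists for 4 of them, is not read against these shares. Genes with a peak had a median of 1 locus, and 33.0% had at least 2, as Otx2 and Mycn did.

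By score, 6 of the 13 peaks were above the median of their own list, which was 12 in Piranha, 12 in Pyicoclip and 14 in PIPE-CLIP. The Klf4 site ranked highest, at percentile 90.5 of Piranha and 85.1 of Pyicoclip. The stronger Mycn cluster stood at percentile 84.1 of PIPE-CLIP, while the Pyicoclip peak inside it stood at percentile 12.1 of its list. The Pou5f1 cluster and the shared Otx2 cluster had equal scores and stood at percentile 77.1. The 2 Klf5 peaks were among the lowest of their lists, at percentile 12.6 of Piranha and 12.1 of Pyicoclip. None of the member peaks came near the top scores of these lists, which were 87 in Piranha, 229 in Pyicoclip and 1542 in PIPE-CLIP.

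**Figure D2:**
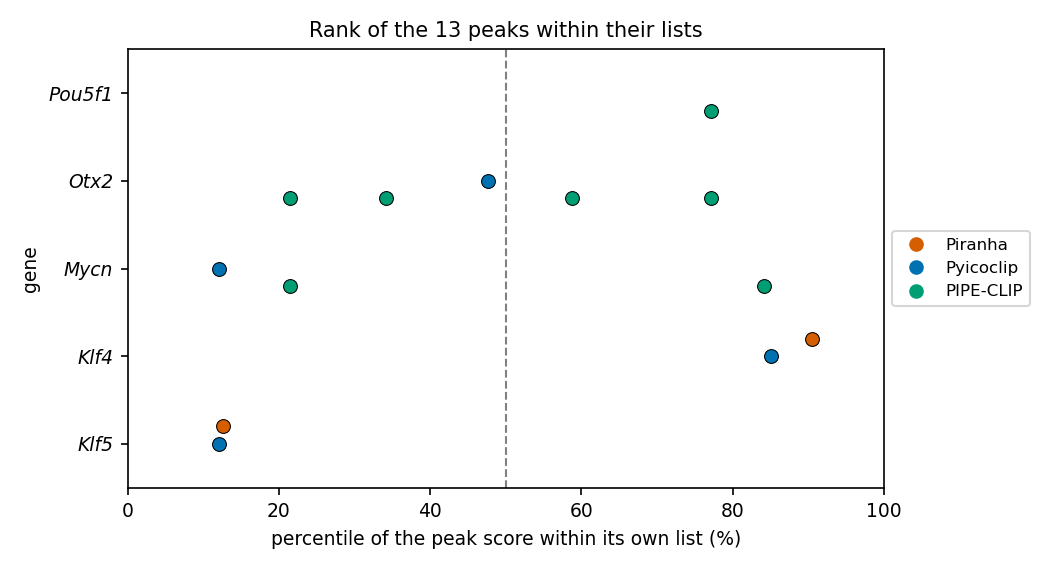
Percentile of each of the 13 peak scores within its own list on the horizontal axis, by gene on the vertical axis, with colours for the 3 lists and the dashed line at the median. The 2 Klf4 peaks lie at 85.1 and 90.5, the 2 Klf5 peaks at 12.1 and 12.6, and the PIPE-CLIP clusters of Otx2 run from 21.5 to 77.1.

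PIPE-CLIP clusters were spread unevenly over strands. Its list as a whole held 2835 minus-strand and 422 plus-strand clusters. Piranha held 712 and 705 peaks, and Pyicoclip 936 and 995, with 137 more of no strand. Gene strands were taken from the RefSeq promoter table. Otx2 and Mycn, minus-strand genes, had 4 and 2 clusters, Klf4 on the same strand had 0 and Pou5f1, on the plus strand, had 1. Over all protein-coding genes with a strand in the table, 12.2% (95% Wilson interval 11.6 to 12.9) of 8762 minus-strand genes and 1.98% (1.71 to 2.30) of 8730 plus-strand genes had a PIPE-CLIP cluster. In Pyicoclip the shares were 4.51% (4.09 to 4.96) and 4.56% (4.14 to 5.02), and in Piranha 2.77% (2.45 to 3.14) and 2.96% (2.62 to 3.33). The skew towards minus-strand genes was thus in PIPE-CLIP, the list whose clusters as a whole are mostly on the minus strand. Its origin, and its part in the difference between Pou5f1 and Otx2, were not tested.

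Whether peaks lay on the strand of their gene differed by list and, in Pyicoclip, by width. Of PIPE-CLIP clusters over 60 nt in exactly 1 gene span, such as that of Pou5f1, those of Mycn and 3 of the 4 of Otx2, 98.5% (97.9 to 99.0) of 1790 were on the strand of their gene, and of 309 clusters of 31 to 60 nt, such as the remaining Otx2 cluster, 96.4% (93.7 to 98.0) were. For Pyicoclip peaks over 60 nt, the width class of the Otx2 and Mycn sites, the share was 92.6% (89.4 to 94.8) of 376. For Pyicoclip peaks of at most 30 nt, the class of the Klf4 and Klf5 sites, it was 51.3% (46.4 to 56.1) of 396, close to an even split. Piranha peaks of at most 30 nt had 58.0% (53.5 to 62.4) of 474, and the 5 Piranha peaks over 60 nt had 60% (23.1 to 88.2), an interval too wide to show a relation to width in that list. The transcript of origin of the narrow Klf4 site, on the gene strand in both lists, remains uncertain. The share was not computed for narrow peaks found in both lists or for those with a score as high.

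**Figure D3:**
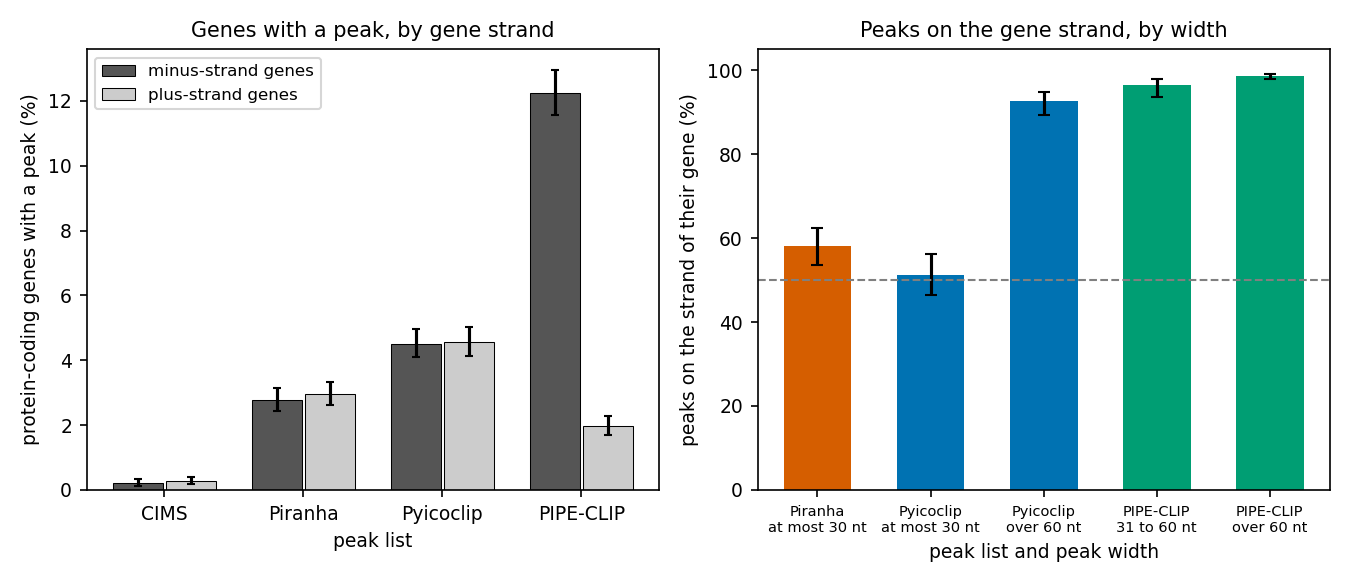
Left, the share of protein-coding genes with a peak in each list, in percent, for minus-strand and plus-strand genes; right, the share of peaks on the strand of their gene, in percent, by list and peak width. Bars are shares, error bars are 95% Wilson intervals and the dashed line is 50%; PIPE-CLIP has 12.2% of minus-strand against 1.98% of plus-strand genes, and narrow Pyicoclip peaks lie at 51.3%.

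Along the gene, 0 of the 13 midpoints lay in the last 10% of the span, although the shared Otx2 site, at 89.3% in PIPE-CLIP and 89.4% in Pyicoclip, was just outside it. With the last 20% instead, 4 of the 13 were counted, namely both peaks of that site and the 2 overlapping peaks of Mycn. Over all peaks on the strand of their single gene, the share in the last 20% was 54.3% (52.1 to 56.4) in PIPE-CLIP and 39.3% (33.9 to 45.0) in Piranha. In Pyicoclip it was 72.4% (67.7 to 76.7) for peaks over 30 nt and 18.7% (14.0 to 24.6) for narrower ones. In the same set, the last 10% held 43.0% (40.9 to 45.1) of 2063 PIPE-CLIP clusters and 61.2% (56.2 to 65.9) of 381 Pyicoclip peaks over 30 nt. It held 9.36% (6.07 to 14.2) of 203 Pyicoclip peaks of at most 30 nt. The first 10% held 8.05% (6.95 to 9.30) of the PIPE-CLIP clusters, a part of the span that included the Pou5f1 cluster and the first Otx2 cluster, at 5.83%. All these shares leave out peaks of the kind seen in Klf5 and the strandless Mycn peak, since a gene or peak strand was missing. They also pool spans of any length, whereas the member spans ran from 4746 to 14722 nt. No exons or untranslated regions were used, so the part of the mRNA under each peak, and whether a peak lies in an intron, is not given.

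The paired sites also showed how the callers place a peak. In both Klf sites the 2 scores were equal, as in 68.3% of 1369 overlapping pairs of Piranha and Pyicoclip peaks. Among pairs as narrow as these, with 20 nt in Piranha and at most 30 nt in Pyicoclip, equal scores were more frequent still. The shares were 92.1% of 469 minus-strand pairs and 89.6% of 451 plus-strand pairs. At Otx2 and Mycn, PIPE-CLIP scored 19 and 22 where Pyicoclip scored 12 and 10, and scores were equal in 3.78% of 688 such pairs. The Pyicoclip peak began 10 nt above the Piranha peak in coordinates at Klf4, on the minus strand, and 11 nt above it at Klf5, on the plus strand. Over pairs of a 20-nt Piranha peak and a Pyicoclip peak of at most 30 nt, the median shift was 7 nt on the minus strand (469 pairs, quartiles 3 and 12) and 6 nt on the plus strand (451 pairs, quartiles 3 and 10). The shift ran towards higher coordinates on both strands and so did not follow the direction of the RNA.

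**Figure D4:**
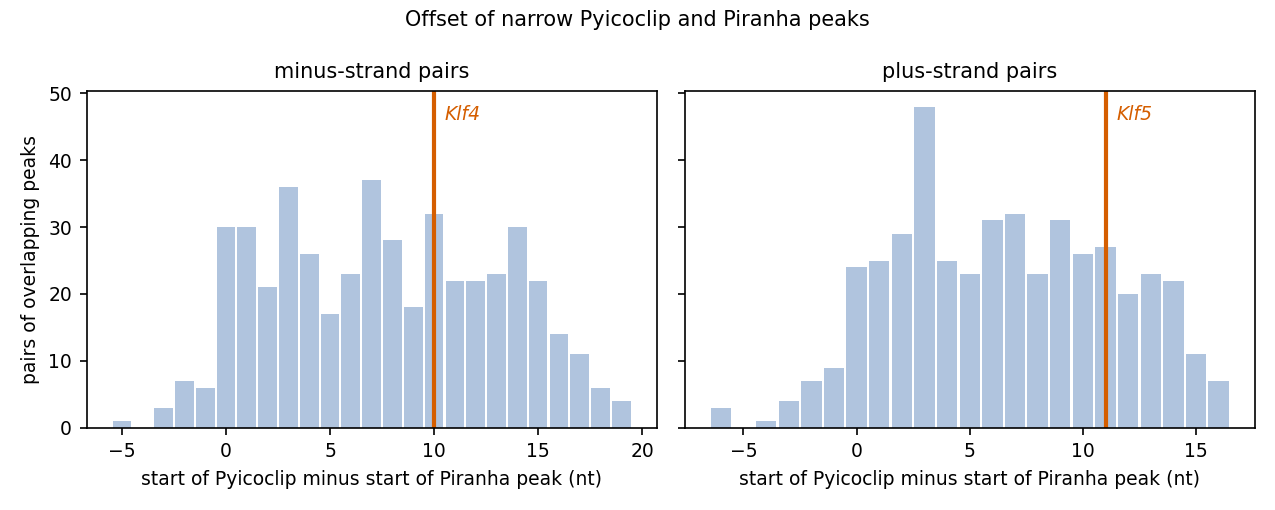
Number of overlapping pairs, on the vertical axis, by the start of the Pyicoclip peak minus the start of the Piranha peak in nt, for minus-strand pairs on the left and plus-strand pairs on the right. Pairs of a 20-nt Piranha peak and a Pyicoclip peak of at most 30 nt are shown, and lines mark Klf4 at 10 nt and Klf5 at 11 nt.

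The 5 genes were then set in a list of 35 genes of the pluripotency network. Of the other 30, 3 had a peak, a share of 10%, beside 9.74% of all protein-coding genes. Lin28a, which encodes an RNA-binding protein that blocks let-7 maturation, was the only 1 of them in 2 or more lists. It had 12 peaks at 6 loci in all 4 lists and its highest PIPE-CLIP score was 144. Tcf7l1, which encodes a repressor in the Wnt pathway, had 3 PIPE-CLIP clusters with scores of 11 to 12, and Tcf3, a gene of an E-protein factor, had 2 with scores of 10 and 13. These 2 genes, in 1 list each, were named after their values were seen.

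All 3 of these genes are on the minus strand, where 3 of 8 other network genes had a peak. Of the 12 other plus-strand genes, 0 had one, and with so few genes a true share as high as 25% (3 counts of 12) is compatible with that. Those 12 included Sox2 and Nanog, which encode partners of POU5F1, Esrrb, which encodes a nuclear receptor of the naive state, Klf2 and Trim28. The corresponding shares of all protein-coding genes were 14.4% (13.7 to 15.1) on the minus strand and 5.19% (4.74 to 5.67) on the plus strand. Pou5f1 was the only 1 of the 13 plus-strand genes of the list with a peak. Without PIPE-CLIP, 1 of the other 30, Lin28a, had a peak, beside 4.55% of all protein-coding genes, and 4 of the 5 member genes, all but Pou5f1, were left. Sox2, Nanog and Myc held no peak in these lists, which contain no score under 10, so weaker AGO2 binding there was not detectable.

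**Figure D5:**
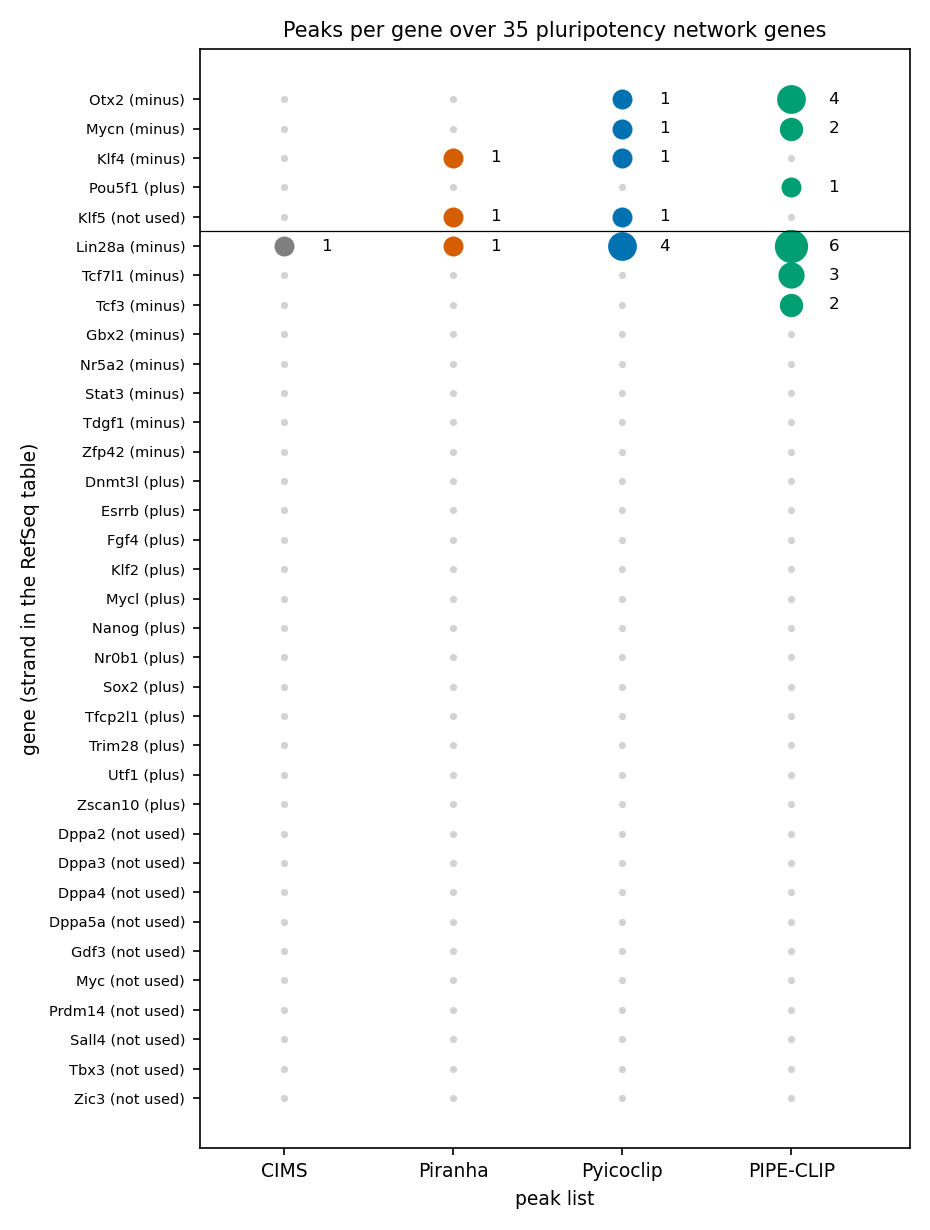
Peaks per gene (number and dot area) for 35 pluripotency network genes on the vertical axis, with the gene strand in brackets, and the 4 peak lists on the horizontal axis; grey dots are 0 peaks. The 5 member genes are above the line, and below it Lin28a, Tcf7l1 and Tcf3, all on the minus strand, are the genes with a peak.

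Paralogues of the member genes were looked at in the same way. Of 15 other Klf genes 1 had a peak, a share of 6.67% beside 9.74% of all protein-coding genes. This was Klf13, a zinc finger factor gene on the minus strand, with 4 peaks in PIPE-CLIP, 2 in Pyicoclip and 1 in Piranha. Its highest scores were 18 in Pyicoclip and 10 in Piranha, where Klf4 had 19 in both and Klf5 had 10 in both, and 56 in PIPE-CLIP, where Klf4 and Klf5 had no cluster. The Klf13 clusters scoring 38 and 56 stood at 93.0% and 91.9% of the span, while the Klf4 site was at 20.3% in Piranha. Of 20 other Pou genes, pseudogenes included, 2 had a peak, a share of 10% beside the same 9.74%. Pou2f1, 1 of these that was named after its values were seen, had 2 PIPE-CLIP clusters scoring 11 and 12. Myc, Mycl, Otx1 and Crx had none.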

How the data were processed

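Per the labels' protocols, small RNA libraries of the AGO2-bound RNA were PCR-amplified, selected for short inserts and run on an Ion Proton. The submitters' processing notes name cutadapt, Novoalign and mm10. For caller settings and the pooling of libraries, the sources used here give nothing. The authors deposited a score per peak in each of 4 lists, with no stated unit. No molecular identifiers are named, so intervals cover counting error only.

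Gene spans came from the RefSeq table of GRCm38.p6, whose coordinates are those of mm10, and gene strands and starts from its promoter table, which matched 4 of the 5 genes (Klf5 was not matched) and 17492 of 21900 protein-coding genes. Percentiles are mid-ranks within a list. Peaks of different lists were called overlapping when 1 nt or more was shared on 1 strand, and loci ignored strand. Shares of peaks on the gene strand and positions used peaks in exactly 1 gene span. Wilson intervals are at 95%.

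The members and gene lists were chosen with earlier results of these data known. The choice of microRNAs may also have drawn on them. Genes named were the 5 members, network and family genes in at least 2 lists, and those the text marks; some that meet this rule are not reported here. Seed matches in peaks were planned and not run. Alternatives covered the span rule, score, strand, overlap, merging, the part of the span and PIPE-CLIP. On simulated data, 1000 of 1000 planted peaks were assigned to their gene. Python 3.11.15, numpy 2.4.6, pandas 2.3.3, scipy 1.17.1 and matplotlib 3.10.9 were used.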

Additional observations from a re-analysis of the deposited data

How the results depend on the processing

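Of 17 alternatives, 11 gave a count within 1.5 times that reported, but several of these could not have changed it. The nearest peak outside a member span was 31003 nt away, the smallest gap between loci of 1 gene was 179 nt, and 0 peaks were opposite to their gene. The 0 peaks in the last 10% of the span also had to stay 0 with only the highest-scoring peaks. The 13 peaks and 9 loci were the same with any overlap in place of the midpoint and with spans widened by 1000 nt, and the 9 loci also with peaks up to 50 nt apart merged. On the gene strand alone, 10 peaks and 8 loci were left, without Klf5. With only peaks above the median score of their list, 6 peaks at 5 loci were left, and again none in Klf5. Without PIPE-CLIP, 4 loci were left, 1 each in Otx2, Mycn, Klf4 and Klf5. Peaks that overlapped another list numbered 8, also with strand ignored, and 6 where at least 50% of the shorter peak had to be shared, since the Klf5 pair shared 9 of 20 nt. The share of all peaks that overlapped another list was not counted. In the last 20% of the span there were 4 peaks, against 0 in the last 10%. In the network list, 8 genes had a peak, 5 without PIPE-CLIP and 5 with only scores above the median. No library could be left out and no paired analysis was possible because the lists carry no value per library. None of the lists held a score under 10, so weaker sites are beyond these data.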
